A study of Mus musculus with 36 samples.

Results

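The genes described here are 34 mouse genes of glycolysis and of the response to low oxygen, listed as glucose transporters, glycolytic enzymes, lactate and pyruvate handling genes, the oxygen-regulated factor Hif1a with its prolyl hydroxylases, and genes that low oxygen is known to induce. Each gene was represented by its probe set with the highest mean over all arrays, and 30 of the 34 were tested among 18193 genes. Gpi1 and Eno1 were not analysed here, and the 3 probe sets of Bnip3l were left out because they also list its pseudogene. Gapdh was covered by 3 control sets of the array and is described apart from the tests.

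The values come from 36 single-channel mouse arrays of CD8 T cells. OT-I cells, T cells with a transgenic receptor for an ovalbumin peptide, received a short hairpin RNA before transfer into hosts with tumors of the mouse melanoma line B16. The control hairpin was aimed at LacZ, which mouse cells do not have, and the others at Alk, Arhgap5, Egr2, Ppp2r2d or Ptpn2. Each of the 6 transductions had 3 arrays labelled spleen and 3 labelled tumor, which gave 12 groups and 18 arrays per label. Every group, controls included, carried a hairpin and came from tumor-bearing mice. The labels do not give a strain or age, and they do not say whether the arrays of a group are separate animals. Each p-value therefore measures the spread between arrays. Purified cells were measured in bulk, so fewer cells of a type and less RNA per cell cannot be told apart.

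Glycolysis splits glucose into pyruvate, and lactate dehydrogenase turns pyruvate into lactate, which monocarboxylate transporters carry out of the cell. When oxygen is low, the prolyl hydroxylases no longer mark the alpha subunit of hypoxia-inducible factor (HIF) for destruction. HIF then binds short promoter and enhancer elements of glycolytic genes and of genes for oxygen supply, mitochondrial turnover and collagen modification. Activated CD8 T cells also raise glycolysis through receptor, mTOR and Myc signals.

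Most of the members' promoters held the HIF core letters. The core was searched as ACGTG or GCGTG on both strands in the 250 bases before each RefSeq transcript start (build GRCm38.p6). At least 1 core was present in 27 of the 28 members with a promoter entry (96.4%), against 53.6% of 14452 genes with one. ACGTG alone was present in 71.4% of the members and 22.5% of genes, and GCGTG in 71.4% and 42.5%. The E-box CACGTG, which contains ACGTG, was present in 21.4% and 8.73%. Member windows were also richer in G and C, with a median of 62.8% against 57.6%, and in CpG, with a median of 15 against 12 sites. Tpi1 had no core in its window, and Slc2a3 and Ndrg1 had no entry. A match is a description of letters and not a measured binding site.

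The stretches below are shown because 4 of these genes were lower in the arrays labelled tumor and the other two, Slc2a1 and Pdk1, did not pass the test. They run 5′ to 3′ on the gene's strand, capitals mark the core on either strand, and each lies upstream of a RefSeq transcript start. The Slc16a3 stretch lies inside the gene, before the start of a later transcript.
Slc16a3 (chr11:120949031-120949060, plus strand): gcagcggtgACGTGcgcgggggACGTGccg
Bnip3 (chr7:138909567-138909626, minus strand): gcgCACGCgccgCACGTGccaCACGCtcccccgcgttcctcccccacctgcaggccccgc
P4ha2 (chr11:54100809-54100868, plus strand): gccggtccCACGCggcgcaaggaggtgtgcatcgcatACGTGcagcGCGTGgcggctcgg
Pgk1 (chrX:106186929-106186988, plus strand): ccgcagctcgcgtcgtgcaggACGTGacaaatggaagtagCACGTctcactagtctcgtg
Slc2a1 (chr4:119108666-119108725, plus strand): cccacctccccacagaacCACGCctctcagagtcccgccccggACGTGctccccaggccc
Pdk1 (chr2:71873131-71873160, plus strand): gccccgcctacatggGCGTGtctttaacca

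The arrays were first checked against their labels. T cell genes were present under both labels: Cd8a ran from 6.13 to 7.46 in the arrays labelled spleen and from 6.25 to 7.21 in those labelled tumor, on the deposited log2 scale. Over 10 T cell genes the mean lay between 5.74 and 6.65 and between 4.73 and 6.94, the lowest in a Ptpn2 array labelled tumor. Other T cell genes fell further under the tumor label. Thy1, Cd2, Cd3d and Cd3e reached 2.48, 3.18, 3.74 and 3.75 there, against lowest values of 5.65, 5.74, 6.63 and 6.47 under the spleen label. Genes of pigment cells and macrophages were high in the arrays labelled spleen. Over 12 melanocyte genes the mean lay between 2.35 and 4.07 there and between -1.32 and -0.27 in the arrays labelled tumor. Over 13 macrophage and monocyte genes it lay between 1.51 and 4.24 against -2.12 and -0.53. These markers go against the labels, since B16 is a pigment cell tumor. Tumor and spleen are therefore given below as labels. If the labels were exchanged, every direction between them printed here would be the reverse, and whether they were was not tested. Of the targeted genes, Ppp2r2d was lower than in LacZ under the spleen label (-1.37 ± 0.42 SE, adjusted p = 0.0286), and the other 9 comparisons of a target with LacZ did not pass, with adjusted p of at least 0.0727. Of those 9, Arhgap5 under the spleen label and Alk under the tumor label read above LacZ (0.45 and 1.13). Ptpn2 array 1 labelled tumor stood apart, with a best correlation to any other array of 0.891 against at least 0.954 for the rest.

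The comparison of the labels over all transductions asked how the genes differed between the arrays of the 2 labels. Of the 30 members tested, 28 were lower in the arrays labelled tumor and 0 were higher (limma, adjusted p under 0.05). Over all genes 33.1% were lower and 37.6% higher in this comparison. The members' median difference was -1.14 on the log2 scale, against 0.13 for all genes. With each array centred on the median of its genes, which moves the median of all genes to 0.56, 23 members were lower and 1 was higher, with a members' median of -0.71, while 11058 genes were higher and 3725 lower in place of 6847 and 6014. Under quantile normalization 28 members were lower and 1 higher. In all, 19 members were lower by more than 2-fold, 9 by more than 4-fold and 4 by more than 8-fold, as were 14.2%, 4.67% and 2.17% of all genes. For 13 of the 30 all 18 arrays labelled tumor lay below all 18 labelled spleen, a pattern that 6.51% of genes showed. All 30 members passed a filter that kept genes above the 40th percentile of the array in at least 3 arrays. Arrays of 1 label alone can meet that rule, so it does not show the level under the other label.

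**Figure D1:**
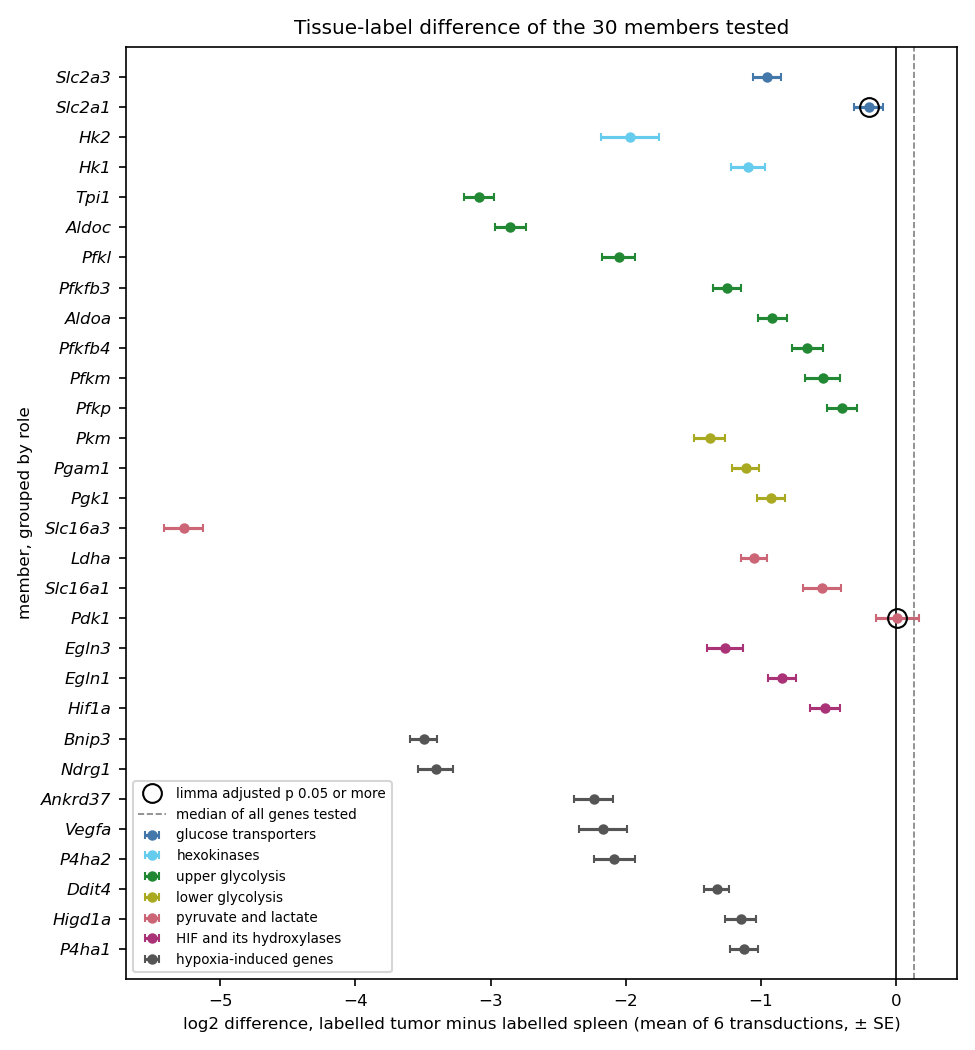
Log2 difference (labelled tumor minus labelled spleen, mean of 6 transductions, ± SE from limma) of the 30 members tested, grouped by role; open circles mark members that did not pass and the dashed line is the median of all genes, 0.13. Slc16a3 has the largest difference, -5.27, and Slc2a1 and Pdk1 are the circled members near 0.

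Among the glucose transporters, Slc2a3 was lower in the arrays labelled tumor and Slc2a1 did not pass. Slc2a3, the high-affinity transporter GLUT3, ranged from 6.17 to 7.51 with a median of 6.64 in the arrays labelled spleen, and from 5.21 to 6.45 with a median of 5.66 in those labelled tumor. A single array labelled tumor rose above the lowest one labelled spleen. The difference was -0.95 ± 0.11 (SE, adjusted p = 3.22e-09). Slc2a1, the transporter GLUT1, ranged from 6.09 to 7.41 with a median of 6.54 and from 5.84 to 7.08 with a median of 6.30. The 2 ranges overlapped in most arrays, and the difference was -0.20 ± 0.11 (adjusted p = 0.0910). In LacZ alone Slc2a1 was lower by -0.82, and in the other 5 transductions its difference lay between -0.18 and 0.05. Under quantile normalization the LacZ difference was -0.25 and did not pass (adjusted p = 0.205). Leaving out LacZ array 3 labelled spleen or Egr2 array 2 labelled tumor brought the difference over all transductions past the threshold (adjusted p = 0.0386 and 0.0152). Median centring and cyclic loess turned its sign (0.23 and 0.0095). The mean of its probe sets passed (-0.28, adjusted p = 0.0144), as did another probe set (-0.42, adjusted p = 0.0011). It also passed with array weights (-0.23, adjusted p = 0.0153) and without 4 arrays that stand apart (-0.29, adjusted p = 0.00302).

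Both hexokinases, which trap glucose as glucose-6-phosphate, were lower in the arrays labelled tumor. Hk2, the inducible form, ranged from 5.01 to 6.13 (median 5.58) under the spleen label and from 0.05 to 4.91 (median 3.84) under the tumor label, with no overlap. The lowest value, 0.05, came from Ptpn2 array 1, and the next lowest array read 2.64. Its difference was -1.97 ± 0.22 (adjusted p = 2.27e-09). Within Ptpn2 the difference of Hk2 was -3.20 with that array and -1.95 without it. Hk1, the form found in most tissues, differed by -1.09 ± 0.13 (adjusted p = 7.74e-09).

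The 8 members tested of upper glycolysis were lower, with differences from -3.09 to -0.40 and a median of -1.08. Tpi1, the isomerase that interconverts the 2 triose phosphates, ranged from 6.36 to 7.25 (median 6.62) under the spleen label and from 3.00 to 4.21 (median 3.53) under the tumor label. No array of one label reached the other, and the difference of -3.09 ± 0.11 was 8.49-fold. All 3 probe sets of Tpi1 gave it, at -3.09, -3.31 and -3.13. Aldoc, an aldolase best known from brain, differed by -2.85 ± 0.11, and its range of 1.46 to 3.39 did not meet the range of -1.15 to 0.85.

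Aldoa, the aldolase of muscle and most cells, differed by less, -0.91 ± 0.11. The 3 phosphofructokinase genes, which encode the committed step of glycolysis, were unequal: Pfkl differed by -2.05 ± 0.12, Pfkm by -0.54 ± 0.13 and Pfkp by -0.40 ± 0.11 (adjusted p = 1.29e-15, 6.19e-04 and 0.00236). The within-array log2 ratio of Pfkl to Pfkp was lower by 1.69 in the median under the tumor label, and its 18 values of each label did not overlap. With median centring Pfkm no longer passed (-0.11, adjusted p = 0.411) and Pfkp turned to 0.03. A further probe set of Pfkl read 0.05 and one of Pfkp 0.22, neither past the threshold. The bifunctional enzymes Pfkfb3 and Pfkfb4, which set the level of the activator fructose-2,6-bisphosphate, differed by -1.25 ± 0.11 and -0.65 ± 0.11. A second Pfkfb3 probe set read 0.26 (adjusted p = 0.119), and Pfkfb4 did not pass with median centring (-0.23, adjusted p = 0.0604).

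The 3 members tested of lower glycolysis were lower by similar amounts, with a median of -1.11. Pgk1, which makes the first ATP of the pathway, differed by -0.93 ± 0.10, Pgam1, the mutase that follows it, by -1.11 ± 0.10, and Pkm, pyruvate kinase, by -1.38 ± 0.12. Pkm ranged from 6.02 to 7.40 (median 6.58) under the spleen label and from 4.50 to 5.84 (median 5.30) under the tumor label, without overlap. The other probe sets of Pgk1 gave larger differences, -1.86 and -1.65. The Gapdh control sets, aimed at 3 places along the transcript, read -0.36 ± 0.10 at the 3′ end, -0.82 ± 0.10 in the middle and -0.86 ± 0.14 at the 5′ end. The Gapdh 3′ minus 5′ reading, a measure of how intact the RNA is, lay between 0.25 and 0.83 in the arrays labelled spleen other than LacZ. It was 0.83 to 1.39 in LacZ labelled spleen, 0.86 to 1.14 in all arrays labelled tumor but Ptpn2 array 1, and 2.94 in that array. The part of RNA quality in the members' differences was not tested.

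Lactate export held the largest difference of all members. Slc16a3, the transporter MCT4 that exports lactate from glycolytic cells, ranged from 4.26 to 5.50 (median 4.59) in the arrays labelled spleen and from -1.61 to 0.66 (median -0.63) in those labelled tumor. The gap between the labels was wider than the spread within either. The difference of -5.27 ± 0.15 corresponded to 38.6-fold (adjusted p = 5.19e-24) and lay between -5.74 and -4.79 over the 6 transductions. Its median under the tumor label lay below the medians of all genes in those arrays, 0.12 to 0.35, so that side of the fold is a low reading. The tumor-label medians of Aldoc, Vegfa, P4ha2 and Pfkfb4 lay below them too (-0.58, -0.50, -1.77 and -0.95). Slc16a1, the transporter MCT1, differed by -0.54 ± 0.14 (adjusted p = 0.00134) with overlapping arrays, and median centring ended the call (-0.12, adjusted p = 0.470). Its second probe set read 1.09 ± 0.13 in the opposite direction (adjusted p = 1.4e-08), and the mean of both turned to 0.27, so the gene's direction depends on the probe set. The within-array ratio of Slc16a1 to Slc16a3 was higher by 4.73 in the median under the tumor label, with no overlap.

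Ldha, the lactate dehydrogenase subunit that favours lactate, ranged from 6.94 to 7.74 (median 7.22) under the spleen label and from 5.85 to 6.78 (median 6.14) under the tumor label. The labels did not overlap, and the difference was -1.05 ± 0.10 (adjusted p = 3.43e-11). Pdk1, the kinase that keeps pyruvate out of the mitochondrion, had the smallest difference of the members, 0.01 ± 0.16 (adjusted p = 0.953). It ranged from 4.78 to 5.66 (median 5.18) and from 2.87 to 5.91 (median 5.35), the lowest value being Ptpn2 array 1. Its other probe sets read -0.12, -0.30 and 0.58, of which the last passed, and with quantile normalization Pdk1 was higher by 0.30 (adjusted p = 0.0257) and with median centring by 0.44 (adjusted p = 0.0177).

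**Figure D2:**
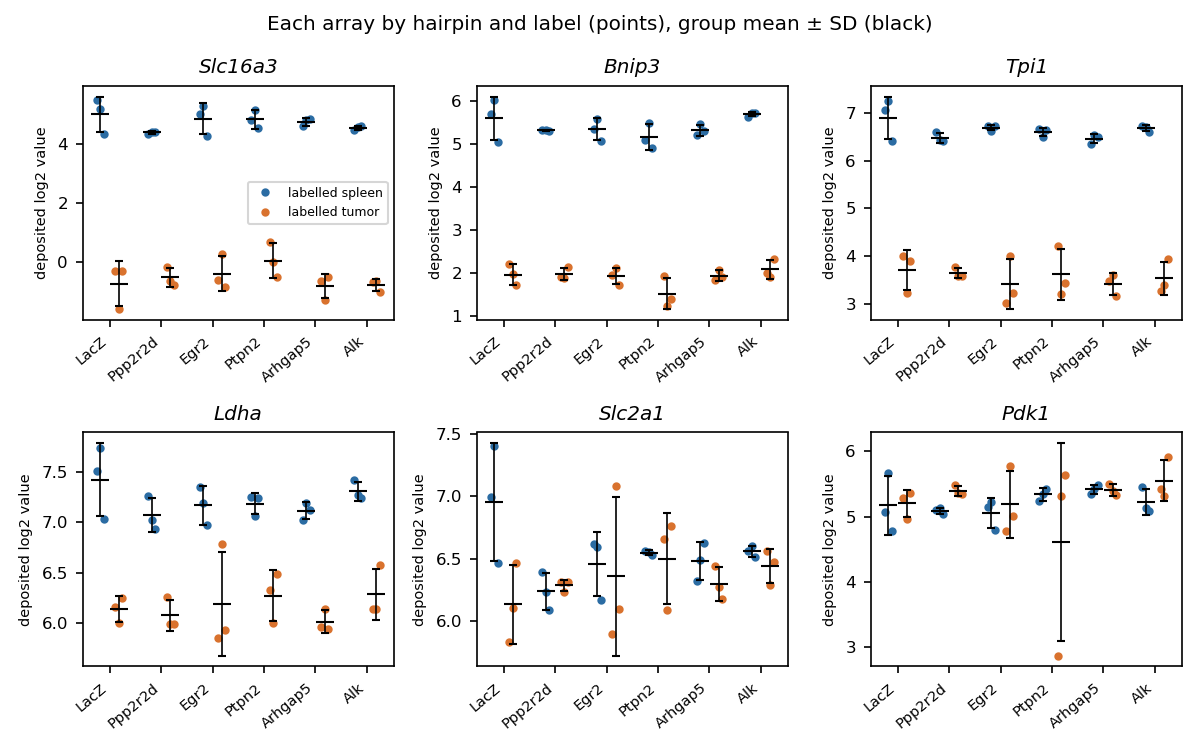
Deposited log2 value of each array (points) with group mean ± SD (black) for Slc16a3, Bnip3, Tpi1, Ldha, Slc2a1 and Pdk1, by hairpin (x axis) and label (colour, 3 arrays each). The labels separate without overlap in the first 4 genes and overlap in Slc2a1 and Pdk1.

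Hif1a and its hydroxylases were lower by moderate amounts. Hif1a, the oxygen-regulated subunit, ranged from 6.04 to 7.37 (median 6.47) under the spleen label and from 5.04 to 6.74 (median 5.92) under the tumor label. The ranges overlapped widely, and the difference was -0.52 ± 0.11 (adjusted p = 1.43e-04). By transduction it reached -1.34 in LacZ and -0.77 in Ptpn2, the pair that passed on the deposited scale, and was -0.07 in Alk. Under quantile normalization it was -0.72 in LacZ and -0.49 in Ptpn2, Ppp2r2d passed too (-0.48, adjusted p = 0.0035), and Arhgap5 read 0.10. The 3 other Hif1a probe sets gave -1.80, -1.76 and -1.98, larger than the set described, and with median centring that set no longer passed (-0.09). Egln1, the main HIF prolyl hydroxylase of normal oxygen, differed by -0.84 ± 0.10. Egln3, a hydroxylase that HIF itself induces, differed by -1.26 ± 0.13, while its second probe set read -0.03 (adjusted p = 0.846).

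The 8 hypoxia-induced members tested were lower, with a median of -2.13. Bnip3, a mitochondrial protein that promotes mitophagy, ranged from 4.90 to 6.02 (median 5.33) under the spleen label and from 1.24 to 2.32 (median 1.92) under the tumor label. Its difference of -3.49 ± 0.10, or 11.3-fold, varied least among the 4 members beyond 8-fold, from -3.63 to -3.33 over the transductions. Ndrg1, a stress- and hypoxia-responsive protein, ranged from 4.71 to 5.75 (median 5.16) and from 0.12 to 2.93 (median 1.80). All arrays labelled tumor were again below those labelled spleen, by -3.41 ± 0.13, and its 5 probe sets gave -3.57 to -1.63. Ankrd37, a HIF target of little-known function, differed by -2.24 ± 0.14.

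Vegfa, the angiogenic growth factor, differed by -2.17 ± 0.18, but 3 arrays labelled tumor lay above the lowest one labelled spleen. P4ha2 and P4ha1, subunits of the collagen prolyl hydroxylase, differed by -2.08 ± 0.15 and -1.12 ± 0.10. Ddit4, an inhibitor of mTOR complex 1, ranged from 6.88 to 7.98 (median 7.11) under the spleen label and from 5.43 to 6.59 (median 5.86) under the tumor label, a difference of -1.33 ± 0.09 without overlap. Higd1a, a mitochondrial inner membrane protein, differed by -1.15 ± 0.11.

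Melanocyte and macrophage genes differed between the labels in the same direction. Of 12 melanocyte genes 11 were lower under the tumor label (median -3.83), and of 13 macrophage and monocyte genes 12 were lower (median -3.80). B cell and erythroid genes differed the other way, with 6 of 7 and 4 of 6 higher under the tumor label and 0 lower (medians 0.99 and 1.13). The B cell mean ran from -1.23 to 0.41 under the spleen label and from -0.18 to 1.07 under the tumor label, and the erythroid mean from -2.66 to -0.79 and from -2.36 to 2.11. Of 7 neutrophil genes 4 were higher and 0 lower, and of 8 stromal and endothelial genes 3 were higher and 3 lower. Of 10 T cell genes 3 were higher and 1 lower (median -0.02). Beside these marker counts, 33.1% of all genes were lower and 37.6% higher. Dct, a melanin synthesis enzyme, ran from 4.29 to 5.87 under the spleen label and from -2.58 to -0.97 under the tumor label, and C1qb, a complement subunit of macrophages, from 3.39 to 6.38 and from -3.87 to -0.79. The deposited scale has no zero, so absence of a marker cannot be read from it. Within the spleen label the mean over the members was 5.02 ± 0.02 (SD, n = 3) in Alk, where the melanocyte and macrophage means were 3.93 and 3.76. It was 4.86 ± 0.02 (SD, n = 3) in Ppp2r2d, where they were 2.76 and 1.93. LacZ had the highest member mean, 5.10 ± 0.39 (SD, n = 3), with marker means of 2.78 and 1.85, the latter the lowest of the label. For all genes the median difference from LacZ under this label ran from -0.24 in Ppp2r2d to -0.15 in Ptpn2. The members' median difference from LacZ there ran from -0.15 in Ppp2r2d to -0.03 in Alk under quantile normalization. With median centring it ran from -0.69 in Ppp2r2d to -0.42 in Ptpn2. On the deposited scale the member mean was 4.95 in Ptpn2, with marker means of 3.47 and 2.48. It was 4.92 in Egr2, with 2.88 and 2.62, and 4.93 in Arhgap5, with 2.94 and 2.60. The part of these cells' RNA in the members' differences was not tested.

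**Figure D3:**
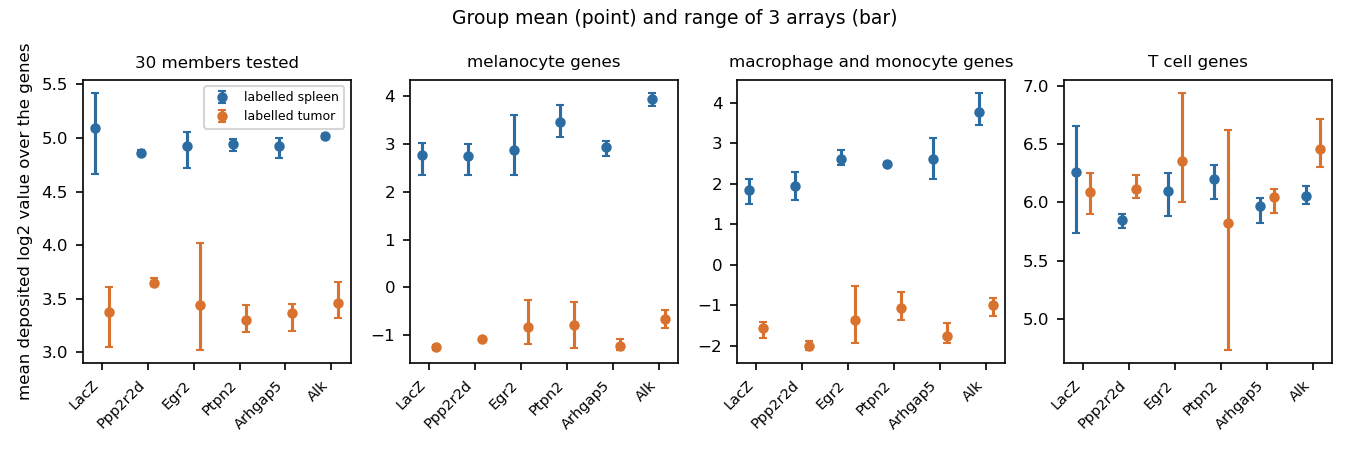
Mean deposited log2 value over the 30 members tested, 12 melanocyte, 13 macrophage and monocyte and 10 T cell genes (panels), by hairpin and label; points are group means and bars the range of 3 arrays. The first 3 panels separate the labels and the T cell panel does not.

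Counted by transduction, every member that passed was lower under the tumor label. Of the 30, 27 passed in LacZ, where 18.9% of genes were lower. The count was 16 in Ppp2r2d (14.5% of genes), 23 in Egr2 (15.9%), 26 in Ptpn2 (25.1%), 22 in Arhgap5 (21.6%) and 24 in Alk (20% of genes). Passing in all 6 transductions were 15 members, Slc16a3, Bnip3, Ndrg1, Tpi1, Aldoc, Ankrd37, P4ha2, Pfkl, Pkm, Ddit4, Pfkfb3, Higd1a, Pgam1, Ldha and Pgk1. Of all genes 9.38% passed as lower in all 6. The difference was below 0 in all 6 for 27 members and for 28% of genes. The median difference ran from -1.51 in LacZ to -0.93 in Ppp2r2d, while that of all genes ran from -0.48 in LacZ to 0.34 in Alk. Under quantile normalization the members' median was -0.95 in LacZ and -0.94 in Ppp2r2d, and the range was from -1.01 in Arhgap5 to -0.83 in Ptpn2. With median centring 24 members passed in LacZ, 12 in Ppp2r2d, 12 in Egr2, 15 in Ptpn2, 17 in Arhgap5 and 16 in Alk. Of all genes, 2453 were then lower and 1554 higher in LacZ, and 1722 and 2998 in Ppp2r2d. The counts of all genes were 1714 lower and 6813 higher in Egr2, and 2690 and 7945 in Ptpn2. In Arhgap5 2263 genes were lower and 5017 higher, and in Alk 2117 and 9544.

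**Figure D4:**
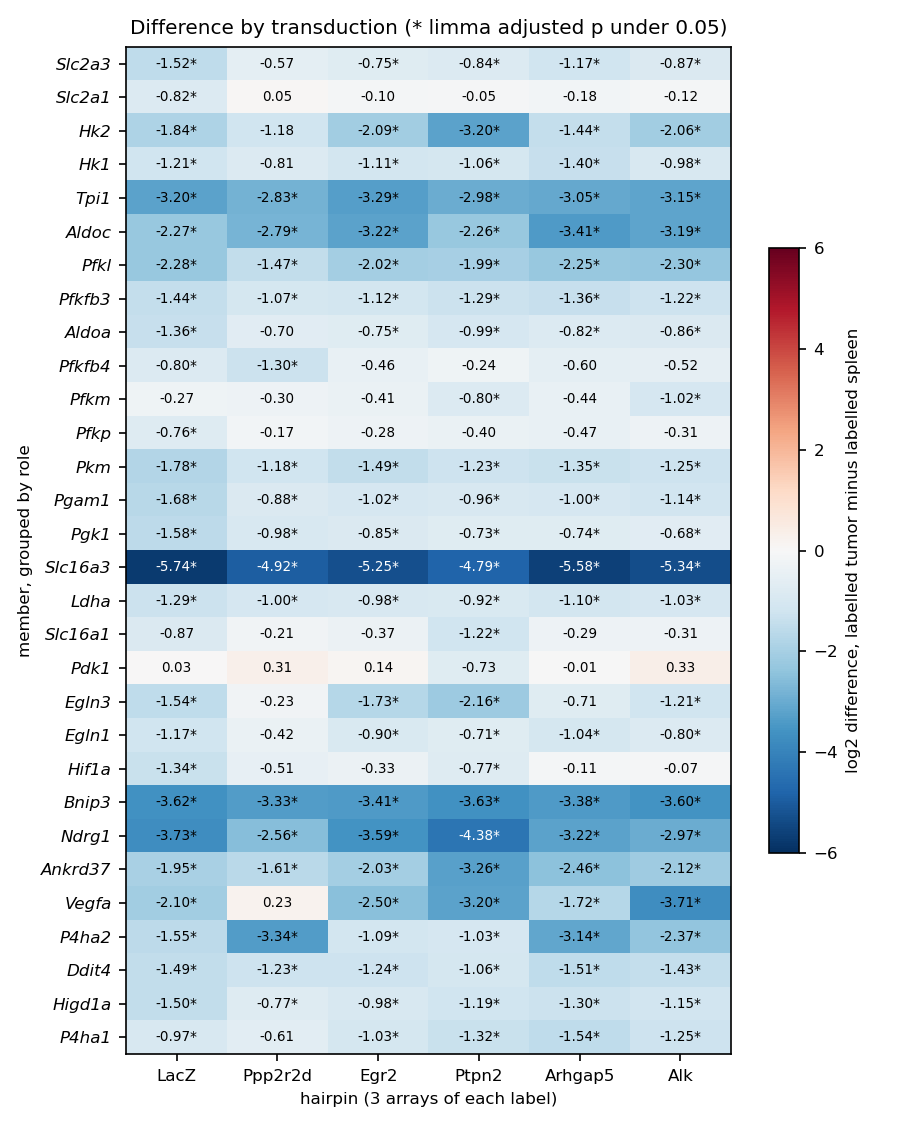
Log2 difference (labelled tumor minus labelled spleen) of each member tested (rows, grouped by role) in each transduction (columns, 3 arrays of each label); asterisks mark limma adjusted p under 0.05. Slc16a3, Bnip3 and Tpi1 are blue in every column, and Vegfa is 0.23 in Ppp2r2d.

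Members whose label difference itself varied among the hairpins were Vegfa, P4ha2 and Egln3 (limma F test over 5 interaction terms). This count, 3 of 30, is near the 9.1% of all genes that passed. Vegfa was lower under the tumor label by -3.71 in Alk and by -1.72 to -3.20 in LacZ, Egr2, Ptpn2 and Arhgap5, but read 0.23 in Ppp2r2d (adjusted p of the F test = 0.00187). Its 3 arrays of Ppp2r2d read 0.45, 1.07 and 1.18 under the spleen label and 0.58, 1.32 and 1.48 under the tumor label. Those of LacZ read 2.28, 1.66 and 1.08 under the spleen label and -0.64, -0.88 and 0.23 under the tumor label. Under the tumor label the Ppp2r2d arrays were thus the highest of all 18. Vegfa in Ppp2r2d against LacZ there was 1.55 ± 0.44, which did not pass (adjusted p = 0.0780).

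P4ha2 varied through the arrays labelled spleen. There it read 1.54, 1.54 and 1.40 in Ppp2r2d, 1.10, 0.63 and 1.41 in Arhgap5 and 0.69, 0.95 and 1.02 in Alk. LacZ gave -0.29, -0.18 and -0.12, and Egr2 and Ptpn2 gave -1.56 to -0.53. The first 3 hairpins were above the other two and LacZ in every array, while under the tumor label the group means lay between -2.09 and -1.48. The label difference was -3.34 in Ppp2r2d, -3.14 in Arhgap5 and -2.37 in Alk against -1.55 in LacZ, -1.09 in Egr2 and -1.03 in Ptpn2 (adjusted p of the F test = 0.00811). Egln3 differed by -2.16 in Ptpn2 and -0.23 in Ppp2r2d (adjusted p of the F test = 0.0408). Leaving out each of the 36 arrays in turn ended that call for 20 of them, with an adjusted p of up to 0.0869.

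**Figure D5:**
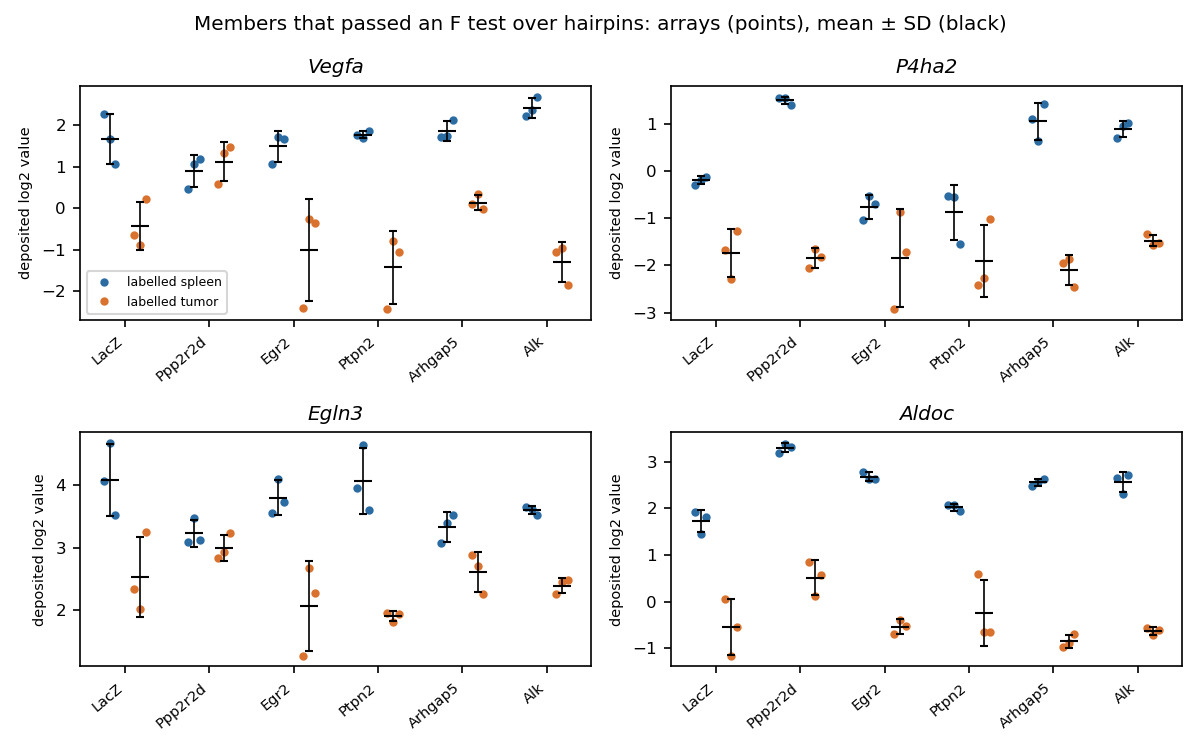
Deposited log2 value of each array (points) with group mean ± SD (black) for Vegfa, P4ha2, Egln3 and Aldoc, by hairpin and label (3 arrays each). Vegfa labels overlap in Ppp2r2d, and P4ha2 is highest under the spleen label in Ppp2r2d, Arhgap5 and Alk.

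Among the 6 transductions within the spleen label, Aldoc and P4ha2 passed, 2 of 30 where 12.2% of genes did (adjusted p of the F test = 0.00262 and 4.1e-05). Aldoc read 3.19, 3.39 and 3.32 in Ppp2r2d against 1.92, 1.46 and 1.81 in LacZ, and the other hairpins lay between on the deposited scale. Under quantile normalization Aldoc in Ptpn2 was below LacZ by -0.13, which did not pass (adjusted p = 0.887). Within the tumor label Vegfa, Ndrg1 and Aldoc passed, 3 of 30 where 11% of genes did (adjusted p of the F test = 0.00131, 0.00921 and 0.0150). Ndrg1 was lowest in Ptpn2, at 0.80 ± 0.62, and highest in Ppp2r2d, at 2.57 ± 0.37 (SD, n = 3 each). Aldoc was highest in Ppp2r2d there as well, at 0.51 ± 0.37, with the other groups between -0.85 and -0.24. The Aldoc call under the tumor label ended without Ppp2r2d array 1 or 3 (adjusted p = 0.119 and 0.0908). With 1 fit per label, the calls of all 3 genes under the tumor label ended too (adjusted p = 0.0708, 0.155 and 0.214). The mean of probe sets ended those of Ndrg1 and Aldoc (0.104 and 0.446), and quantile normalization that of Aldoc (adjusted p = 0.0587).

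Against the LacZ control few members passed, and the comparisons of a label share the LacZ arrays. Under the spleen label Ppp2r2d had 3 of 30, where 6.15% of genes were higher and 6.68% lower. P4ha2 was higher by 1.69 ± 0.38 and Aldoc by 1.57 ± 0.28, and Ddit4 was lower by -0.71 ± 0.23 (adjusted p = 0.0034, 3.0e-04 and 0.0363). The Ddit4 arrays read 6.99, 6.88 and 6.92 in Ppp2r2d and 7.72, 7.98 and 7.22 in LacZ. Its call ended without LacZ array 1 or 2 or any Ppp2r2d array (adjusted p from 0.0603 to 0.180), and under quantile normalization and cyclic loess (adjusted p = 0.389 and 0.173). Quantile normalization kept P4ha2 and Aldoc higher and called Egln3 (-0.95, adjusted p = 0.0261) and Pgam1 (-0.39, adjusted p = 0.0128) lower. Of all genes 1298 were then higher and 854 lower. Under the tumor label Egln3 in Ppp2r2d against LacZ read 0.12 with that scaling (adjusted p = 0.924). Without LacZ array 3 the count of members rose to 9, and the share of all genes was not counted there. Median centring, which lowers the median of all genes to -0.57, gave 16, where 665 genes were higher and 4150 lower.

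Arhgap5 had 2 of 30 under the spleen label, where 3.03% of genes were higher and 5.86% lower. P4ha2 was higher by 1.25 ± 0.38 and Hif1a lower by -0.84 ± 0.27 (adjusted p = 0.0354 and 0.0489). Hif1a read 6.04, 6.19 and 6.09 in Arhgap5 and 7.003, 7.37 and 6.46 in LacZ. Without LacZ array 1 or 2, or without Arhgap5 array 1 or 3, neither passed, and without Arhgap5 array 2 Hif1a did not. Without LacZ array 3 the count was 8, and in a fit of only these 6 arrays it was 0. Median centring gave 7, where 362 genes were higher and 2616 lower. P4ha2 was then not among the members called (1.03, adjusted p = 0.0596). Egr2, Ptpn2 and Alk had 0 of 30 in limma under the spleen label, where 3.23%, 9.58% and 7.4% of genes passed, and 1, 2 and 4 at an unadjusted p under 0.05, where 20.9%, 28.3% and 26.5% of genes were. The LacZ arrays labelled spleen correlated less with their nearest array (0.954 to 0.971) than the other arrays of that label (0.982 to 0.991).

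Under the tumor label no hairpin had a member that passed against LacZ in limma. The share of all genes that passed was 0.995% in Ppp2r2d, 0.0275% in Egr2, 0.764% in Ptpn2, 0.368% in Arhgap5 and 0.0055% in Alk. At an unadjusted p under 0.05 the members were 5, 1, 6, 1 and 1, and the genes 13.5%, 5.35%, 19.8%, 4.55% and 25.6%. Array weights brought the counts of called members to 7 in Ppp2r2d, 3 in Egr2, 4 in Arhgap5 and 9 in Alk. The share of all genes that passed under these weights was not counted. Quantile normalization called Ddit4 in Ppp2r2d (-0.62, adjusted p = 0.0095) and in Alk (-0.66, adjusted p = 0.020) and Egln1 in Ptpn2 (0.71, adjusted p = 0.033). Of all genes, 257 were then higher and 135 lower in Ppp2r2d, 30 and 37 in Alk, and 339 and 189 in Ptpn2. On the deposited scale Aldoc came nearest, at 1.06 ± 0.28 in Ppp2r2d (adjusted p = 0.0543). With quantile normalization it read 1.01 (adjusted p = 0.107). Without Ptpn2 array 2 the Ptpn2 count was 6, without LacZ array 1 or 3 the Ppp2r2d count was 1, and without 4 arrays that stand apart (Ptpn2 1 and 3 and Egr2 2 labelled tumor, LacZ 2 labelled spleen) the Ppp2r2d count was 4.

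Of 83 other genes of these pathways, listed with earlier results of these data known, 46 were lower and 10 higher under the tumor label, with a median of -0.35. For this and each list below, the shares of all genes were 33.1% lower and 37.6% higher. Of 15 other glycolytic isoforms, 7 were lower and 4 higher. They included Ldhb, the lactate dehydrogenase subunit that favours pyruvate, at -2.40 ± 0.10, muscle enolase Eno3 at -2.39 ± 0.13 and the transporter Slc2a6 at -2.39 ± 0.12. The within-array ratio of Ldha to Ldhb was higher by 1.43 in the median under the tumor label. Of 11 genes of pyruvate oxidation 8 were lower and 1 higher, with Pdk3, a second kinase of pyruvate dehydrogenase, at -1.94 ± 0.11. All 6 pentose phosphate genes were lower, with a median of -0.89, among them Pgd at -1.20 ± 0.12, Rpe at -1.14 ± 0.12 and Tkt at -0.89 ± 0.11.

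Of 26 other hypoxia-induced genes 18 were lower and 0 higher, with a median of -0.66. Tgfbi, a secreted matrix protein, differed by -5.45 ± 0.18, Ak4, a mitochondrial adenylate kinase, by -4.93 ± 0.12, and Car9, a carbonic anhydrase that HIF induces, by -3.38 ± 0.15. Each of them was without overlap between the labels. Of 12 other HIF pathway components 5 were lower and 2 higher. Epas1, which encodes HIF-2 alpha, differed by -2.06 ± 0.18, and Vhl, the ligase subunit that recognises hydroxylated HIF, by -0.29 ± 0.11 (adjusted p = 0.0223). Arnt, the partner of HIF alpha, read -0.18 ± 0.25 (adjusted p = 0.516), and Siah1a, a ligase that degrades Egln proteins, was higher by 1.72 ± 0.12. Of 13 regulators outside HIF 2 were lower and 3 higher, among them Akt1 at -1.43 ± 0.16, Txnip, which restrains glucose uptake, at 0.99 ± 0.11 and its activator Mlxip at 0.64 ± 0.12.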

How the data were processed

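The deposited values are log2 expression per probe set in one table of 36 arrays. The submitters' processing notes name RMA, and its version is not given in the sources used here. That the scale is log2 was read from the values' range, and how the authors centred the arrays is not known: array medians over genes ran from 0.12 to 0.83. Precision is limited by the number of arrays.

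Of 45101 probe sets, 34945 carried 1 gene symbol and 932 several in the platform annotation; 64 control sets and sets with several symbols were left out, and 9160 were not listed with a gene. The set with the highest mean over 36 arrays stood for each of 18193 genes. Fits used limma 3.58.1 in R 4.3.3 with 1 coefficient per group over all arrays (24 residual and 6.75 prior degrees of freedom), two-sided, with Benjamini-Hochberg adjustment over all genes in each of 20 comparisons, 3 of them F tests. A gene was called at an adjusted p under 0.05. The fit was tested on simulated data.

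The members and lists were chosen with earlier results of these data known. Named were all members for the label comparison, called members elsewhere (at most 6 by size), members passing an F test, and up to 3 called genes per other list, with Arnt, Epas1 and Vhl. Values of members near a threshold are given besides. The numbers 1 to 3 in the sample names were not taken as pairs: over 18 same-numbered pairs residual correlations ran from -0.24 to 0.24, and 4 exceeded 0.1. Alternatives were the mean of probe sets, other probe sets, a filter on low values, quantile, cyclic loess and median scaling, fewer arrays, array weights, a replicate block, a minimum difference and leaving out arrays. Promoters came from RefSeq (GRCm38.p6).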

Additional observations from a re-analysis of the deposited data

Results flagged for a closer look

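The label difference of 3 members varied among the hairpins by a test of that variation itself, the limma F test over 5 interaction terms, which 9.1% of all genes passed. Vegfa had an adjusted p of 0.00187, with 0.23 in Ppp2r2d and -3.71 in Alk. P4ha2 had 0.00811, with -3.34 in Ppp2r2d and -1.03 in Ptpn2. Egln3 had 0.0408, with -0.23 in Ppp2r2d and -2.16 in Ptpn2. Among the alternatives that left out arrays the adjusted p ran from 2.17e-04 to 0.00934 for Vegfa, from 8.01e-04 to 0.0182 for P4ha2 and from 0.010 to 0.0869 for Egln3.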

How the results depend on the processing

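Leaving out 1 array at a time kept 28 to 29 members lower over all transductions. By transduction the range was 23 to 28 in LacZ, 15 in Ppp2r2d, 17 to 23 in Egr2, 21 to 24 in Ptpn2, 19 to 22 in Arhgap5 and 21 to 24 in Alk. Against LacZ under the spleen label it was 2 to 9 in Ppp2r2d, 0 to 2 in Ptpn2 and 0 to 8 in Arhgap5, and under the tumor label 0 to 1 in Ppp2r2d and 0 to 6 in Ptpn2. It was 0 throughout in the other 5 comparisons with LacZ. Over the F tests it was 2 under the spleen label, 2 to 7 under the tumor label (7 without Egr2 array 2 or Ptpn2 array 2, 6 without Ptpn2 array 3) and 2 to 5 for the variation of the label difference. Median centring gave 12 members in Egr2 and 15 in Ptpn2 between the labels. Of all genes, 1714 were lower and 6813 higher in Egr2, and 2690 and 7945 in Ptpn2. Against LacZ under the spleen label median centring gave 16, 4, 7 and 6 members in Ppp2r2d, Ptpn2, Arhgap5 and Alk. There 665 genes were higher and 4150 lower in Ppp2r2d, and 294 and 2649 in Ptpn2. In Arhgap5 362 were higher and 2616 lower, and in Alk 401 and 3812. The F test under that label gave 4 members and the F test of the label difference 5. Array weights gave 7, 3, 4 and 9 against LacZ under the tumor label in Ppp2r2d, Egr2, Arhgap5 and Alk, and 10, 18 and 12 in the F tests of the spleen label, the tumor label and the label difference. Cyclic loess gave 5 in Ppp2r2d and 1 in Alk under the spleen label, and 1 each in Ptpn2 and Alk under the tumor label. Of all genes, 1441 were higher and 1012 lower in Ppp2r2d and 1098 and 500 in Alk under the spleen label. Under the tumor label 298 were higher and 133 lower in Ptpn2, and 17 and 37 in Alk. Each F test gave 5 members with cyclic loess. Quantile normalization gave 1 in Alk under the spleen label, where 892 genes were higher and 449 lower. Under the tumor label it gave 1 each in Ppp2r2d, Ptpn2 and Alk. There 257 genes were higher and 135 lower in Ppp2r2d, 339 and 189 in Ptpn2 and 30 and 37 in Alk. The F tests of the tumor label and the label difference gave 5 members with quantile normalization. Fits of only the arrays compared gave 12 in Egr2 and 14 in Ptpn2 between the labels, and 0 in Arhgap5 under the spleen label and in the F test of the tumor label. The filter on low values gave 1 in Egr2 under the spleen label and 2 in Ppp2r2d under the tumor label. The mean of probe sets gave 6 in Ppp2r2d and 1 in Arhgap5 under the spleen label, and a minimum difference of 1 gave 1 in Arhgap5. Without the 4 arrays that stand apart, Egr2 and Alk had 1 each under the spleen label, Ppp2r2d 4 and Alk 1 under the tumor label, and the F test of the tumor label 8. With the replicate number as a block, Egr2 and Arhgap5 had 1 each under the spleen label and the comparison over all transductions kept 28, and with transduction and number as the replicate block the adjusted p of Egln3 was 0.0682. Signs turned for Slc2a1 with cyclic loess (0.0095) and median centring (0.23), for Pfkp with median centring (0.031) and for Slc16a1 with the mean of probe sets (0.27). Other probe sets turned Pfkfb3 (0.26), Pfkl (0.053), Pfkp (0.22), Slc16a1 (1.09) and Pdk1 (-0.12 and -0.30). Pdk1 also turned with array weights (-0.0015) and without single arrays, over which it ran from -0.075 to 0.156. The cause of these changes was not tested. The share of all genes that passed was not counted for alternatives other than the 3 scalings, nor for the F tests under any alternative.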
